A study of Mus musculus with 16 samples.

Results

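Cholesterol synthesis and its control by the sterol regulatory element binding proteins (SREBPs) were examined through 28 genes of the 54532 in the count table, taken by their symbols. Of these, 20 encode enzymes of the pathway, from acetyl-CoA to cholesterol, and 8 encode the SREBPs, the proteins that hold or cleave them, and a sterol carrier. All 28 passed the filter on low counts. RNA was sequenced from bronchoalveolar lavage cells, the cells washed out of the lung, of mice aged 8 to 10 weeks on day 14. The mice had received saline or bleomycin (4 U per kg) by the oropharyngeal route. Bleomycin is a DNA-damaging drug used to injure the lung and model its fibrosis. The 4 groups were saline males, saline females, bleomycin males and bleomycin females, with 4 libraries each. The design text names the strain C57BL/6 and the sample labels write it C56BL/6J. No group carries a transgene or a deleted gene by its labels, and all libraries come from unsorted cells. Nothing in the labels says that each library is a separate animal, so p-values measure the spread between these 16 libraries.

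Cells make cholesterol from acetyl-CoA in the cytosol and the endoplasmic reticulum. The early steps yield mevalonate, which becomes isoprenoid units, then squalene, then lanosterol, which is trimmed to cholesterol. When sterols are low, SCAP carries the SREBPs from the endoplasmic reticulum to the Golgi apparatus, where the proteases MBTPS1 and MBTPS2 release a fragment that enters the nucleus and raises transcription of the pathway. INSIG proteins hold SCAP back when sterols are high. Alveolar macrophages, the main cells of lavage from a resting lung, take up surfactant lipid and handle much cholesterol.

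The promoters are shown because the genes below rose together and the SREBP pathway is known to act through short promoter elements. RefSeq (GRCm38.p6) promoter windows were found for 23 of the 28 genes. The stretches printed are the 150 bases before the start of 5 genes, 5′ to 3′ on the strand of the gene. Stard4 was left out of the choice, which was made with the rises known. Among the other genes with a single RefSeq start and a stretch that touches no annotated exon, these 5 rose most. The stretches lie upstream of Sc5d (chr9:42264301-42264450, minus strand), Hmgcs1 (chr13:119690201-119690350, plus), Mvk (chr5:114444119-114444268, plus), Mvd (chr8:122443423-122443572, minus) and Ebp (chrX:8193513-8193662, minus). Capitals mark TCACCCCAC (the core of a sterol regulatory element), CCAAT (the box bound by NF-Y) and GGGCGG (a GC box bound by Sp factors), each on either strand.
Sc5d: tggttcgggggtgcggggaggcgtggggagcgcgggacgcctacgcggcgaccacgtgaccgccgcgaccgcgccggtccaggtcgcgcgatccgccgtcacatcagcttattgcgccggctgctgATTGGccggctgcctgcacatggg
Hmgcs1: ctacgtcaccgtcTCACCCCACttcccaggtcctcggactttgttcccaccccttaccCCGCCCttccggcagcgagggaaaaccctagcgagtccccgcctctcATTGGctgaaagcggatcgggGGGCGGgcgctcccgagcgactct
Mvk: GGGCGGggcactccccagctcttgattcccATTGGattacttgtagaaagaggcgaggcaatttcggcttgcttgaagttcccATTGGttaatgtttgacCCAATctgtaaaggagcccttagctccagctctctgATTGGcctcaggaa
Mvd: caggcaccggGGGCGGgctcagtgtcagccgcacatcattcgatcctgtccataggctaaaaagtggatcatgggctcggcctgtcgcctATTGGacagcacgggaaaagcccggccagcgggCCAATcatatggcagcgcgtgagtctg
Ebp: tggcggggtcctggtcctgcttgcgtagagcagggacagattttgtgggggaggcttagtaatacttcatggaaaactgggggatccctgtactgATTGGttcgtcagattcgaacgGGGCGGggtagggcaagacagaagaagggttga

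Each of the 5 stretches holds at least 1 CCAAT box, and Mvk holds 4. The 9-letter TCACCCCAC stands only in the Hmgcs1 stretch among them, with its first base at position -137 from the start. Over the 250 bases before the start, this motif was present in 1 of the 23 matched genes and in 0.555% of all 27025 symbols of the RefSeq table. Its form with a free base, TCACNCCAC, which includes the first, was in 1 of 23 and in 1.22% of symbols. CCAAT was present in 19 of 23 genes and in 37.5% of symbols, GGGCGG in 20 of 23 and in 35.4%, and the E-box CACGTG in 5 of 23 and in 6.86%. A gene with several starts was counted once if any of its windows held the motif. The 23 genes had 31 windows and the 27025 symbols had 32851. The symbols were not limited to the genes tested here, so the shares are not those of expressed genes. A match is a string of letters and was not tied to binding here.

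Total counts ran from 16385784 to 24567609 per library. The share of these counts on the 28 genes together was 0.154% to 0.198% under saline and 0.202% to 0.269% under bleomycin, ranges that do not overlap. Levels of a gene across libraries are given as CPM, counts relative to the library total and scaled for composition (TMM). Changes are log2 fold changes from edgeR's quasi-likelihood test with approximate standard errors (SE), and a gene was called, or said to have risen or fallen, at a Benjamini-Hochberg adjusted p below 0.05 over the 15257 genes tested.

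Bleomycin raised most of the pathway. Averaged over the sexes, 23 of the 28 genes rose and 4 fell, where 63.6% of all genes tested were called (34.7% higher, 28.8% lower). Among the 20 enzymes, 18 rose, 1 fell and 1 was not called, with a median log2 change of 0.91 beside 0.01 over all genes tested. The largest rises were those of Idi1 (1.62), Sc5d (1.56), Fdft1 (1.35), Cyp51 (1.33), Hsd17b7 (1.33) and Tm7sf2 (1.32). The 8 saline and 8 bleomycin libraries did not overlap for 16 of the 28 genes, against 29.6% of all genes tested. Without composition scaling, the median over all genes moved from 0.01 to -0.20, and 34.7% of all calls were higher in place of 54.6%. Of the 28 genes, 19 then rose and 5 fell, where 24.4% of all genes were called higher and 45.9% lower, and Ebp, Fdps, Insig2 and Mbtps2 were no longer among the rises. With any 1 of the 16 libraries left out, 22 to 23 rose and 3 to 4 fell.

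Markers of other cell types moved with the treatment in the same libraries. The summed level of 12 T cell markers was 1.47 to 4.00 CPM under saline and 184 to 597 CPM under bleomycin. All 12 markers of monocyte-derived macrophages rose, from summed levels of 82.1 to 103 CPM to 1438 to 2706 CPM. Ly6c2 had no count in saline females and Plac8 none in saline males. Of 12 resident alveolar macrophage markers, 8 fell and 1 rose, with sums of 17530 to 26880 CPM under saline and 11380 to 24700 CPM under bleomycin. Of 12 proliferation genes none rose and 4 fell, where 34.7% of all genes tested rose and 28.8% fell. The part of these shifts in the changes below was not tested, and in such bulk samples fewer cells of a type cannot be told apart from less RNA per cell.

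Acat2 and Acat1, the thiolase genes among the members, moved in opposite directions. Acat2, the cytosolic thiolase that joins acetyl-CoA units, rose by 0.80 (SE 0.09, adjusted p = 3.54e-07). Acat1 (chr9:53580522-53610382), its mitochondrial counterpart, which serves ketone body and isoleucine breakdown, stood at 87.2, 91.3, 91.5 and 97.9 CPM in saline males and 97.3, 108, 112 and 114 CPM in saline females. Under bleomycin it stood at 60.8, 67.7, 74.1 and 74.8 CPM in males and 55.1, 65.1, 77.2 and 81.3 CPM in females. No bleomycin library reached the lowest saline library, and Acat1 was the only enzyme that fell (-0.52, SE 0.07, adjusted p = 6.32e-06).

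Hmgcs1 (chr13:119690379-119708260) encodes the cytosolic synthase of HMG-CoA. Its level was 101, 102, 106 and 114 CPM in saline males and 130.2, 131, 136 and 138 CPM in saline females. It reached 228, 232, 273 and 275 CPM in bleomycin males and 224, 242, 298 and 311 CPM in bleomycin females. All 8 bleomycin libraries lay above all 8 saline libraries, a rise of 1.13 (SE 0.07, adjusted p = 1.12e-10). The 3 enzymes that turn mevalonate into isopentenyl diphosphate rose less. Mvk, the kinase of the first of these steps, rose by 0.95 (SE 0.10), Pmvk, the second kinase, by 0.57 (SE 0.10), and Mvd, the decarboxylase, by 0.41 (SE 0.07). The saline and bleomycin libraries overlapped for Pmvk and Mvd but not for Mvk.

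Idi1 (chr13:8885501-8892451), the isomerase that makes the reactive isoprenoid unit, had the largest rise of the 28. Saline males held 19.3, 21, 24.7 and 25.9 CPM and saline females 33.2, 35.6, 36.8 and 40.0 CPM. Bleomycin males held 77.9, 78.3, 86.2 and 101 CPM and bleomycin females 66.3, 87.9, 92.4 and 116 CPM. The lowest bleomycin library was well above the highest saline library (log2 change 1.62, SE 0.10, adjusted p = 9.29e-11). Fdps, which joins the units to farnesyl diphosphate, was the lowest of the 28 genes, with 1.28 to 3.20 CPM in saline libraries and 1.21 to 6.35 CPM in bleomycin libraries. Its rise of 0.74 (SE 0.26, adjusted p = 0.0182) was the least precise, and the libraries overlapped. Without library C50 (6.35 CPM, a bleomycin female) it was 0.62 with an adjusted p of 0.051. Gm43738, on the same strand, shares 26.7% of the exonic bases of Fdps and had 2 counts over the 16 libraries beside 937 for Fdps. How the counting treated reads in shared bases is not given in the sources used here.

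Ggps1, at the side branch that makes geranylgeranyl diphosphate for protein prenylation, was the single member not called. It stood at 26.8 to 30.8 CPM in saline libraries and 25.0 to 33.4 CPM in bleomycin libraries, nearly the same range. Its log2 change was -0.01 (SE 0.06, adjusted p = 0.891) and became -0.22 (adjusted p = 0.00438) with library totals alone.

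The 3 enzymes that lead from farnesyl diphosphate to lanosterol all rose. Fdft1, squalene synthase, rose by 1.35 (SE 0.09). It shares 18.3% of its exonic bases with Ctsb on the opposite strand, which had 1161972 counts over the 16 libraries beside 21418 for Fdft1 and itself rose by 1.99. The strand setting of the counting is not given in the sources used here. Sqle (chr15:59315077-59331192), squalene epoxidase, a rate-limiting step, shares none. Sqle held 42.3, 45.2, 47.6 and 57.0 CPM in saline males and 66.1, 68.5, 74.5 and 79.5 CPM in saline females. Under bleomycin it held 115, 126, 151 and 157 CPM in males and 121, 142, 160.1 and 169 CPM in females. The 4 groups fell into 3 levels, with the bleomycin sexes together at the top (log2 change 1.28, SE 0.09, adjusted p = 3.04e-10). Lss, which closes the ring to form lanosterol, rose by 0.71 (SE 0.09).

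**Figure D1:**
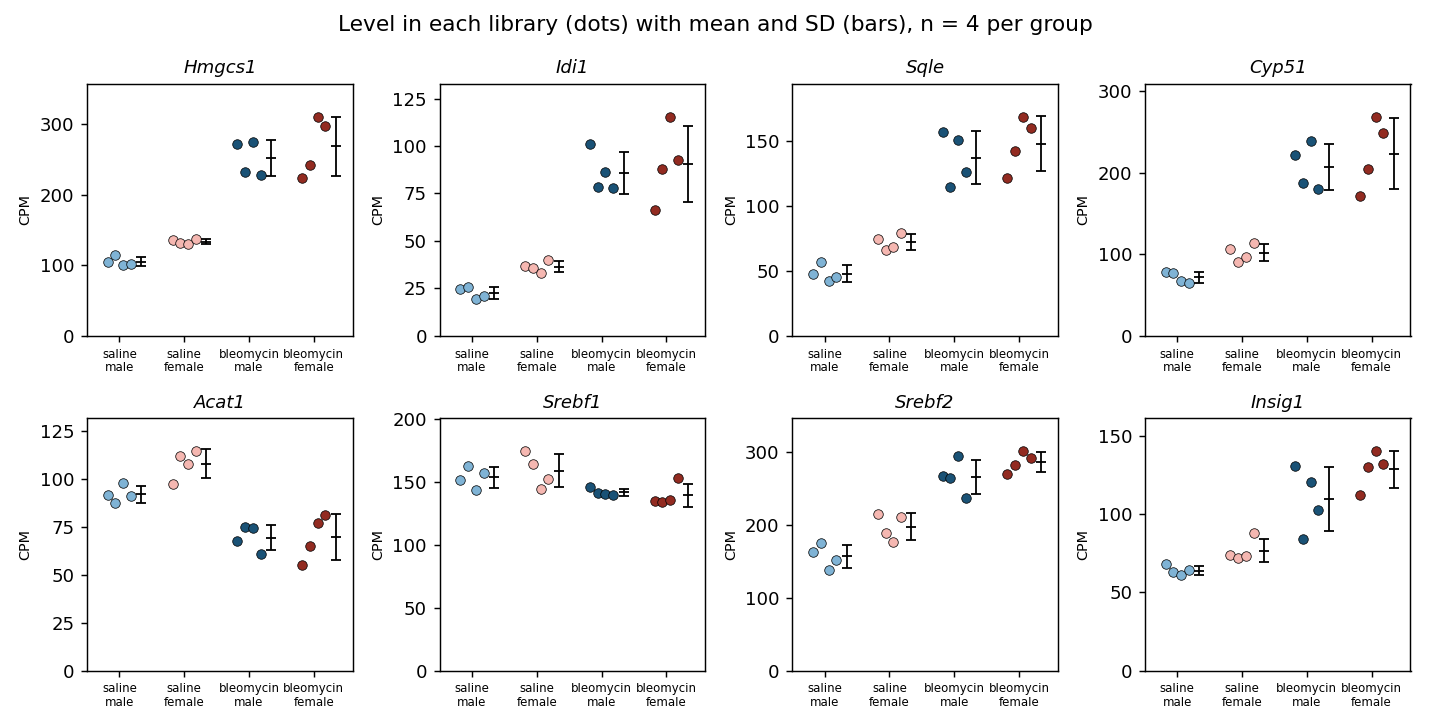
CPM (vertical axes, from 0) of 8 genes in each library (dots) of the 4 groups (horizontal axes), with mean and SD (bars, n = 4). Hmgcs1, Idi1, Sqle, Cyp51 and Srebf2 are higher in every bleomycin library than in every saline library, Acat1 is lower, and Srebf1 and Insig1 overlap.

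All 8 enzymes from lanosterol to cholesterol rose. Cyp51 (chr5:4081145-4104746), which removes the first methyl group of lanosterol, had 64.9, 67.5, 77 and 78.0 CPM in saline males and 91.0, 96.2, 107 and 114 CPM in saline females. It had 179.8, 187, 221 and 239 CPM in bleomycin males and 172, 204, 249 and 269 CPM in bleomycin females. No saline library came near the bleomycin libraries (1.33, SE 0.09, adjusted p = 4.5e-10). Sc5d (chr9:42251595-42264256), the desaturase of a late step, rose from 20.2, 21.1, 23.0 and 28.2 CPM to 68, 72.5, 82.9 and 89.2 CPM in males. In females it rose from 26.2, 26.6, 28.4 and 35.9 CPM to 66.3, 69.7, 76.7 and 88.2 CPM. Its averaged change of 1.56 (SE 0.09) had the smallest adjusted p of the 28 genes, 4.52e-11.

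The reductase gene Tm7sf2 rose by 1.32 (SE 0.10) and Hsd17b7, which reduces the keto group left by demethylation, by 1.33 (SE 0.09). Tm7sf2 shares 12.1% of its exonic bases with Vps51 on the same strand. Vps51 had 1398 counts over the 16 libraries beside 5789 for Tm7sf2. This overlap was taken from GENCODE M21, where the coordinates of Tm7sf2 differ from the deposited ones. Msmo1, which oxidises the remaining methyl groups, rose by 1.11 (SE 0.08) and Nsdhl, their decarboxylating dehydrogenase, by 0.78 (SE 0.09). Dhcr7, which reduces 7-dehydrocholesterol to cholesterol, rose by 0.87 (SE 0.08). Ebp, the sterol isomerase, had the smallest rise of the enzymes, 0.31 (SE 0.10, adjusted p = 0.00974). With library totals alone the change of Ebp was 0.09 (adjusted p = 0.323).

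Compared per length, on the authors' FPKM scale, the enzymes differed widely in level. Mvd was the highest of the 28 genes in every group, at 48.6 ± 3.36 FPKM (SD, n = 4) in saline males and 51.2 ± 3.22 in saline females. Under bleomycin Mvd was at 58.8 ± 7.81 FPKM in males and 72.8 ± 8.09 in females. Hmgcs1 came next there, at 54.3 ± 5.39 and 57.5 ± 8.51 FPKM, and in males these neighbours did not differ beyond their spread. Idi1 moved from place 19 in saline males and 14 in saline females to place 9 in both bleomycin groups, and Acat1 from place 3 to place 14. Sc5d moved from places 23 and 22 to 15 and 16. Fdps was last in every group, at 0.462 ± 0.0471 FPKM in saline males and at most 1.06 ± 0.504 in bleomycin females. How reads in the bases that Fdps shares with Gm43738 were counted is not given.

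The 8 regulators changed less and in both directions. Of these, 5 rose and 3 fell, where 34.7% of all genes tested rose and 28.8% fell. Srebf2 (chr15:82147181-82205379), which encodes SREBP2, the form tied most closely to cholesterol synthesis, stood at 138, 152, 162 and 175 CPM in saline males and 176, 189, 211 and 215 CPM in saline females. Under bleomycin it stood at 237, 264, 267 and 294 CPM in males and 269.7, 283, 291 and 301 CPM in females. The saline and bleomycin libraries did not overlap (0.65, SE 0.06, adjusted p = 5.82e-08). Srebf1 (chr11:60199089-60222581), whose products lean towards fatty acid synthesis, moved slightly the other way. Its level was 143, 152, 157 and 163 CPM in saline males and 145, 153, 164 and 175 CPM in saline females. The bleomycin males had 139.6, 141, 141 and 146 CPM and the bleomycin females 134, 135, 136 and 153 CPM. The libraries overlapped, and the change was -0.15 (SE 0.05, adjusted p = 0.013). The counts do not separate the transcripts of Srebf1.

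The retention genes rose and the escort gene fell. Insig1 held 60.7, 62.8, 64.0 and 67.8 CPM in saline males and 71.8, 73.1, 73.9 and 87.7 CPM in saline females. It held 84.1, 102, 121 and 130.3 CPM in bleomycin males and 112, 129.99, 132 and 140.0 CPM in bleomycin females. The groups were apart within each sex and met between the highest saline female and the lowest bleomycin male (0.76, SE 0.08, adjusted p = 1.32e-07). Insig2 rose by 0.35 (SE 0.07, adjusted p = 0.000504), and by 0.13 (adjusted p = 0.107) with library totals alone. Scap fell by 0.22 on the log2 scale (SE 0.06, adjusted p = 0.00348).

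The SREBP proteases changed little. Mbtps1, the site 1 protease, fell by 0.14 on the log2 scale (SE 0.05, adjusted p = 0.0245), a call lost without the low-count filter (adjusted p = 0.0551) and without library C74 (adjusted p = 0.0521). Mbtps2, the site 2 protease, rose by 0.19 (SE 0.05, adjusted p = 0.00524) and was at -0.02 with library totals alone, and 28.4% of its exonic bases are shared with Yy2, which had 0 counts over the 16 libraries beside 12924 for Mbtps2. Stard4, a soluble carrier that moves sterol between membranes, rose by 0.88 (SE 0.09, adjusted p = 6.2e-08). Its level went from 37.4, 38.7, 44.0 and 44.1 CPM to 60.9, 77.3, 86.4 and 95.3 CPM in males. In females it went from 48.9, 50.7, 51.6 and 59.3 CPM to 77.7, 88.5, 92.6 and 108 CPM. Every bleomycin library was above every saline library.

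Genes around the pathway were counted from 4 further lists, where 34.7% of all genes tested were called higher and 28.8% lower. Of 10 genes for fatty acid synthesis and desaturation known as SREBP targets, 8 rose and 1 fell, with a median of 1.12. The desaturases Fads2 (4.06, SE 0.19), Fads1 (2.65, SE 0.10), Scd1 (2.40, SE 0.09) and Scd2 (1.33, SE 0.08) had the smallest p-values. Of 8 genes for sterol export and storage, 2 rose and 6 fell. Npc2, which moves cholesterol out of lysosomes, rose by 1.1 (SE 0.08) and Soat1, which esterifies it, by 0.72 (SE 0.06). The exporter gene Abcg1 changed by -0.82 (SE 0.08) and Nceh1, a cholesteryl ester hydrolase, by -0.65 (SE 0.07).

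Of 10 genes of sterol sensing and turnover, 5 rose and none fell, with a median of 0.12. Lbr, which carries a sterol reductase activity like that of Tm7sf2, rose by 1.49 (SE 0.16), Rnf145, a ubiquitin ligase of the sterol response, by 1.08 (SE 0.08), and Tmem97, a sterol-binding membrane protein, by 0.63 (SE 0.09). Of 10 genes that use isoprenoids, 3 rose and 3 fell, with a median of -0.08. These counts were near the shares over all genes tested, 34.7% higher and 28.8% lower. Fntb, a farnesyltransferase subunit, rose by 0.79 (SE 0.12), and Dhdds, which builds dolichol chains, changed by -0.60 (SE 0.05).

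Within each sex the pattern was of the same kind. In males 21 of the 28 genes rose and 2 fell, where 56.5% of all genes tested were called (31.5% higher, 24.9% lower). In females 22 rose and 2 fell, where 43.9% were called (26.7% higher, 17.2% lower). Acat1 fell in both. In males the other fall was that of Scap (-0.26, SE 0.08, adjusted p = 0.0133), lost without library C66 (adjusted p = 0.0517). In females it was that of Srebf1 (-0.19, SE 0.07, adjusted p = 0.0381), lost without any of the libraries C49, C50, C67, C68, C74 and C75.

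Some of the smaller rises within a sex also rested on single libraries or on the scaling. In males, the call of Mvd (0.29, adjusted p = 0.0209) was lost without C33, C66, C70 or C73, and that of Mbtps2 (0.22, adjusted p = 0.0168) without C33, C70 or C72. With library totals alone Mvd in males was at 0.06 (adjusted p = 0.609), Mbtps2 at -0.0046 (adjusted p = 0.963) and Insig2, called in males at 0.42, at 0.19 (adjusted p = 0.12). In females, the call of Ebp (0.35, adjusted p = 0.0442) was lost without 13 of the 16 libraries in turn and that of Insig2 (0.28, adjusted p = 0.0397) without 9. Without C69 the change of Ebp in females was 0.17. The call of Fdps in females (1.0, adjusted p = 0.03) was lost without C49, C50, C74 or C75. With library totals alone Ebp in females was at 0.14 (adjusted p = 0.294), Insig2 at 0.08 (adjusted p = 0.53) and Fdps at 0.84 (adjusted p = 0.0791).

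**Figure D2:**
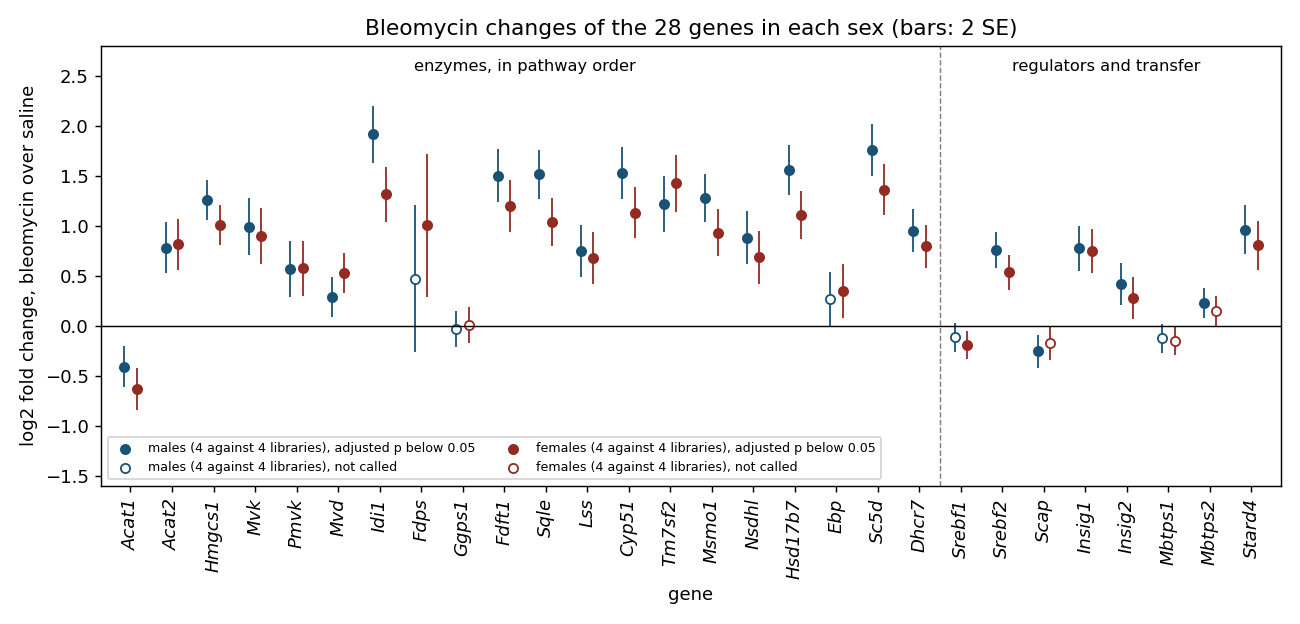
Log2 fold change of bleomycin over saline (vertical axis) of the 28 genes (horizontal axis, enzymes in pathway order, then regulators) in males (blue) and females (red), with bars of 2 SE. Filled dots passed an adjusted p below 0.05. Idi1 has the highest male value, 1.92, and the early enzyme Acat1 is below 0 in both sexes.

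The interaction of treatment with sex asked whether these changes differed between males and females. It called 0 of the 28 genes, and 0.00655% of all genes tested. At an unadjusted p below 0.05 there were 5 genes, each with the larger rise in males, among 7.88% of all genes. DESeq2 and limma voom also called 0 of the 28, where they called 0.151% and 0.0% of all genes. For Idi1 the male change exceeded the female change by 0.60 (SE 0.20, adjusted p = 0.563), for Sqle by 0.48 (SE 0.17, adjusted p = 0.569) and for Hsd17b7 by 0.45 (SE 0.17, adjusted p = 0.604). Differences of this size did not pass at this number of libraries, which does not show that the sexes responded alike. The values share the saline libraries with the comparison of the sexes that follows.

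Under saline, 1 of the 28 genes, Sqle, passed the test between males and females. The difference of males from females was below 0 for 26 of the 28, beside 47.4% of all genes tested, with a median of -0.26. At an unadjusted p below 0.05 there were 15 genes, all lower in males, among 9.56% of all genes. Acat2 (-0.03), Mbtps2 (-0.01) and Insig2 (-0.01) were near 0. The summed level of the 20 enzymes was 775 to 867 CPM in saline males (811 ± 41.0, SD, n = 4) and 971 to 1083 CPM in saline females (1003 ± 53.6), with no overlap. Sqle differed by -0.59 (SE 0.12, adjusted p = 0.0486), where 0.269% of all genes tested were called and 0.125% were called lower. Idi1, at -0.68 (SE 0.14), had an adjusted p of 0.0509 and Hsd17b7, at -0.56 (SE 0.13), of 0.0805.

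The number of genes called here depended on the test. DESeq2 called 5 of the 28 lower, beside 0.511% of all genes tested, and limma voom 0, beside 0.111%. The fit without a low-count filter called 4 lower, beside 0.199%, and the fit to the 8 saline libraries alone 12, beside 2.79%. The call of Sqle was lost without any of the libraries C50, C67, C70, C72, C73, C74, C75, C76 and C77, and without C49 there were 4 genes called. Over all settings run, the change of Sqle lay between -0.68 and -0.53, with adjusted p-values of 0.000877 to 0.215. The authors' deposited table of saline males against saline females lists 17 of the 28 genes, all lower in males. Of these, 14 had an adjusted p below 0.05, beside 1.18% of all genes in the count table. This share is over 54532 genes, not over the genes tested, and is not comparable with the shares above. That table gives Idi1 a log2 change of -0.70 and Sqle one of -0.60.

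For 11 of the 28 genes the saline sexes did not overlap, where 13.2% of all genes tested did not. The share of all genes without overlap and lower in males was 6.33%. All 11 were lower in males. They were Hmgcs1, Idi1, Fdft1, Sqle, Cyp51, Msmo1, Nsdhl and Hsd17b7 among the enzymes and Srebf2, Insig1 and Stard4 among the others. The 4 saline males held at most 18 CPM of Hsd17b7 (13.1, 13.6, 16.8 and 18) and the 4 saline females at least 19.4 (19.4, 22.4, 23.7 and 25.0). For Hmgcs1 the gap was -0.34 (SE 0.10, adjusted p = 0.203) and for Srebf2 -0.33 (SE 0.09, adjusted p = 0.156), so that groups without overlap did not by themselves pass.

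**Figure D3:**
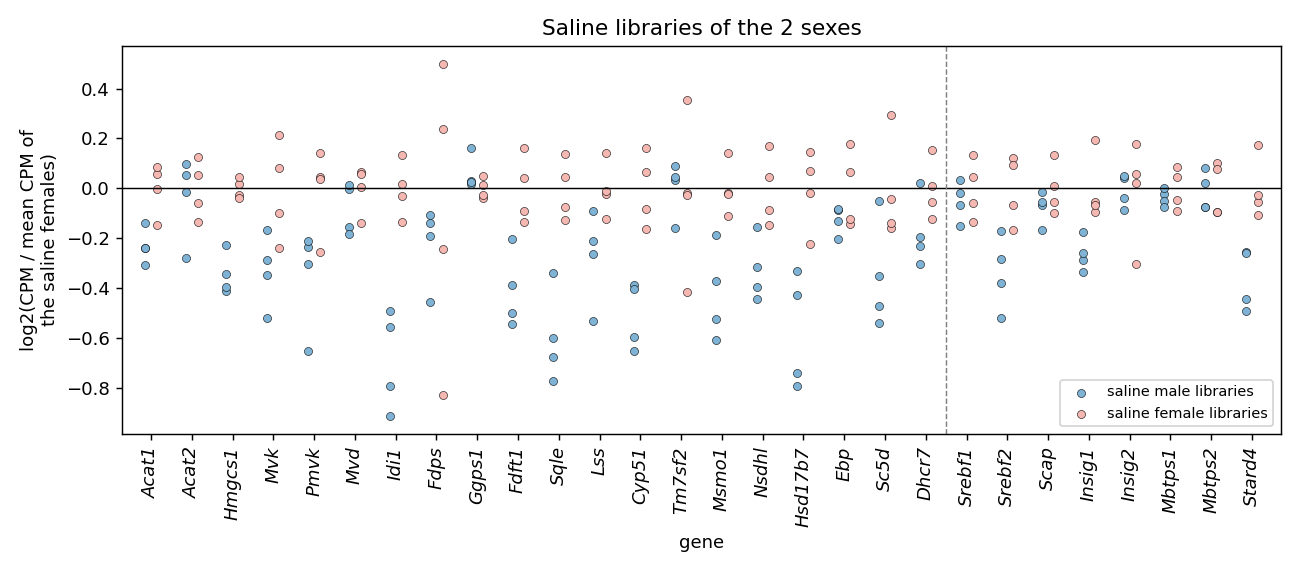
Log2 of the CPM of each saline library over the mean CPM of the saline females (vertical axis) for the 28 genes (horizontal axis), males in light blue and females in pink, 4 libraries each. The 4 male dots of Idi1, Sqle and Hsd17b7 lie below the 4 female dots, and those of Insig2 and Tm7sf2 lie among them.

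A marker list moved with this difference. The summed level of the 12 resident alveolar macrophage markers was 17530 to 19400 CPM in saline males and 23620 to 26880 CPM in saline females, again with no overlap. None of the 12 was called by edgeR, and 1 of 12 was above 0. T cell markers were near 0 in both saline groups, and monocyte-derived macrophage markers summed to 85.9 to 103 CPM in males and 82.1 to 96.4 CPM in females. The part of the resident marker difference in the pathway's difference was not tested. Not all lipid genes shared the direction: of the 10 fatty acid genes 4 were above 0, and Scd1 was called higher in saline males (0.63, SE 0.12, adjusted p = 0.0294).

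Under bleomycin no gene of the 28 was called between males and females, where 0.059% of all genes tested were. At an unadjusted p below 0.05 there were 4, all lower in males, among 3.97% of all genes, and DESeq2 and limma voom, each calling 0.059% of all genes, called none. The summed enzyme level was 1467 to 1787 CPM in males (1626 ± 177) and 1453 to 2044 CPM in females (1757 ± 264), and the sexes overlapped. Idi1 differed by -0.08 (SE 0.13, adjusted p = 0.995) and Sqle by -0.11 (SE 0.12, adjusted p = 0.995).

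The libraries of a group differed among themselves, less in the saline groups than in the bleomycin groups. The median SD over the 28 genes, as a share of the mean, was 9.12% in saline males and 8.53% in saline females. Under bleomycin it was 12.6% in males and 13.8% in females. Over the 19 enzymes other than Acat1, library C68 was the highest of the 4 bleomycin females for 15 and library C49 the lowest for 14. Among the bleomycin males, C33 was highest for 11, while C67 was lowest for 9 and C65 for 8. Among the saline males C71 was highest for 11 and C72 lowest for 13, and among the saline females C77 was highest for 12 and C74 lowest for 9. The summed enzyme level ran from 1453 CPM in C49 through 1467 in C65, 1479 in C67, 1633 in C50, 1770 in C66, 1787 in C33 and 1897 in C69 to 2044 CPM in C68. The lowest of these was still above the highest saline library, 1083 CPM. The order in part rested on the scaling: C49 had a TMM factor of 1.027 and the other 7 bleomycin libraries factors of 0.863 to 0.969. With library totals alone C65 was lowest at 1318 CPM, then C67 at 1373 and C49 at 1492, and C33, at 1691, stood above C69, at 1638. The 3 highest libraries were the same.

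The 3 libraries with the most enzyme RNA had the least T cell marker RNA. The 12 T cell markers summed to 184 CPM in C68, 216 in C69 and 220 in C33, and to 416 to 597 CPM in the other 5 bleomycin libraries. B cell markers (59.6 to 139 CPM beside 244.5 to 419) and dendritic cell markers (313 to 481 beside 498 to 715) were also lowest in these 3 libraries. Proliferation genes (722 to 734 CPM beside 541 to 676) and epithelial markers (356 to 494 beside 260.2 to 354) were highest there. The sums of monocyte-derived macrophage and neutrophil markers did not set these 3 libraries apart. Resident macrophage markers followed the enzyme order only in part. C49 was lowest in both and C69 and C68 were high in both, while C33 stood below C65 and C66 in these markers. They summed to 24700 CPM in C69, 19470 in C68 and 13750 in C33, and to 19810 CPM in C66, 15140 in C65, 11970 in C50, 11850 in C67 and 11380 in C49. The part of any of these lists in the order of the libraries was not tested.

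**Figure D4:**
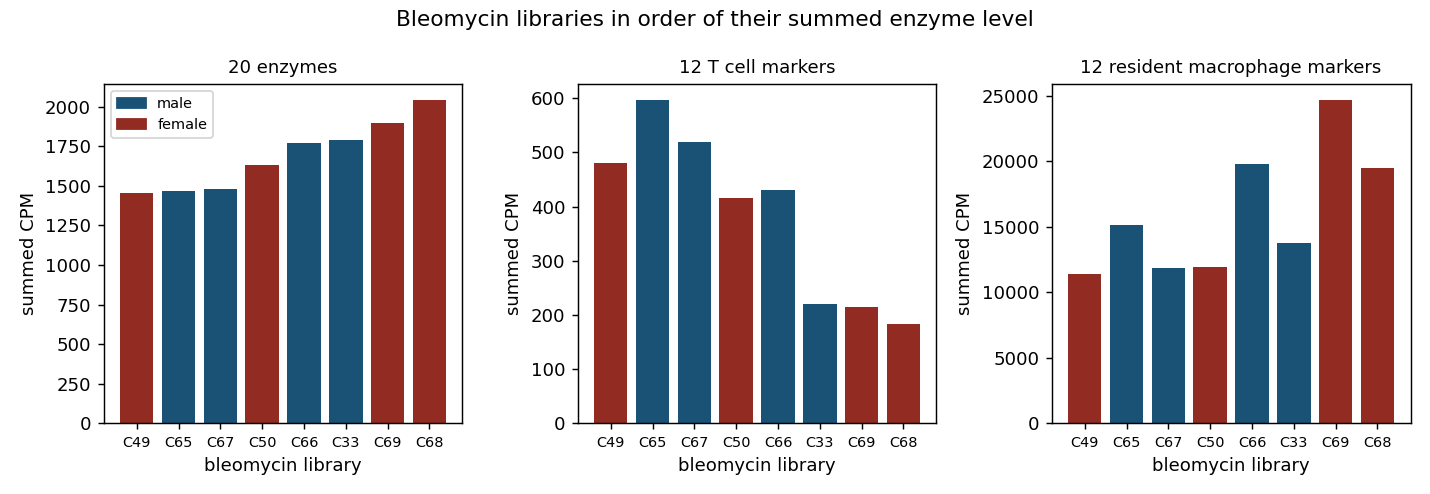
Summed CPM (vertical axes, from 0) of the 20 enzymes, of 12 T cell markers and of 12 resident macrophage markers in the 8 bleomycin libraries, in the order of their enzyme sum, males in blue and females in red. C33, C69 and C68, with the highest enzyme sums, have the lowest T cell sums.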

How the data were processed

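The authors processed the reads with tools that the submitters' processing notes list without roles, namely featureCounts 1.5.0-p3, HISAT2 2.0.5, fastp 0.12.2 and DESeq2 (version not given), with the builds mm9 and mm10. The deposited gene coordinates are those of GRCm38: 98.33% of the 54409 identifiers found in GENCODE M21 have the same coordinates there. The table of counts was deposited by the authors as raw whole counts per gene. The FPKM values, also deposited by the authors, are these counts over gene length and over 1 constant for each library. The deposited comparison tables hold the authors' own log2 fold changes and p-values, for genes whose unadjusted p does not exceed 0.04998.

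Counts were fitted in edgeR 4.0.16 (R 4.3.3) with 1 coefficient per group over all 16 libraries, TMM factors, filterByExpr by group (minimum count 10) and the quasi-likelihood F test. P-values were adjusted over all genes tested (Benjamini-Hochberg). The SE is the absolute log2 change over the square root of F. The script was tested on simulated data, where small interactions were mostly not recovered, and the criterion for their sign was relaxed after it had not been met. Alternatives were RLE factors, library totals alone, no filter, at least 50 counts in 4 libraries, DESeq2 1.42.0, limma voom (limma 3.58.1), only the groups compared, and each library left out.

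The 28 members and all lists were chosen with earlier results of these data known. All members are named. Of every other list the counts are given and at most 4 genes, those with the smallest p in the averaged comparison. Ly6c2, Plac8 and Ly6g are named only for their missing counts. Scd1 under saline and the 11 genes without overlap were singled out after their values were seen, and so were the printed promoters. The lists of B cell, neutrophil, dendritic cell and epithelial markers are described mainly with the other observations.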

Additional observations from a re-analysis of the deposited data

Results flagged for a closer look

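Single libraries stood apart from the other 3 of their group in 6 of 112 tests (28 genes in 4 groups), where chance flags about 1 in 20. Among bleomycin females, C68 held 33.4 CPM of Ggps1 beside 25.0 to 26.3 CPM in the others, and 49.05 CPM of Nsdhl beside 40.5 to 40.6 CPM. In the same group C69 held 153 CPM of Srebf1 beside 134 to 136 CPM, and C49 held 111 CPM of Mbtps1 beside 93.0 to 93.5 CPM. Among saline libraries, the male C71 held 30.8 CPM of Ggps1 beside 27.8 to 28.05 CPM. The female C77 held 87.7 CPM of Insig1 beside 71.8 to 73.9 CPM.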

How the results depend on the processing

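The averaged counts of 23 genes that rose and 4 that fell stayed within 1.5 times their size under every alternative run (19 to 23 and 3 to 5). With library totals alone 5 genes fell in males and 4 in females, in place of 2 each. Without the low-count filter 1 fell in females. With each library left out in turn, 1 to 2 fell in males and 1 to 3 in females. The number lower in saline males, 1 in the edgeR fit, was 2 with RLE factors, 2 with library totals alone, 4 without the filter, 2 with at least 50 counts in 4 libraries, 5 with DESeq2, 0 with limma voom, 12 with only the saline libraries, and 0 to 4 with a library left out. Over all genes this comparison called 41 genes, 119 without the filter, 173 with DESeq2 and 765 with only the saline libraries, and the interaction called 1, with 15 without the filter and 23 with DESeq2. The cause was not tested.

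Recomputed for all 28 genes in all 6 comparisons, 101 of 3808 values under the alternatives had another sign, 2 of them for called values, both of Mbtps2. With library totals alone, Mbtps2 was at -0.024 averaged and -0.0046 in males, and Insig1 at -0.00031 in the interaction. With a library left out, Ggps1, averaged, lay between -0.063 and 0.0062, above 0 without C49 (0.00048) and C71. Between the bleomycin sexes and without C68, Idi1 was at 0.064 (lowest -0.199), Fdft1 at 0.0018 (lowest -0.193) and Msmo1 at 0.026 (lowest -0.16). The interaction of Insig1 was -0.067 without C33, -0.031 without C49 and -0.042 without C77 (highest 0.158). For the sexes, single values are given only for the 11 genes whose saline groups do not overlap, and within a sex only for genes called there, limits set after these sign changes were seen. No paired analysis was possible because the groups share no replicate numbers. Depth was lowest for Fdps, with 937 counts over the 16 libraries.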

Other observations

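Other cell type markers also differed between the treatments, where 34.7% of all genes tested were called higher and 28.8% lower. Of 8 B cell markers, 7 were tested and all 7 rose, with Ighm at 7.53 (SE 0.41) and Cd79a at 7.31 (SE 0.49), and 7 of 8 dendritic cell markers rose, with Itgae at 3.41 (SE 0.10) and Flt3 at 3.98 (SE 0.16). Of 8 neutrophil markers, 7 were tested, of which 6 rose and 1 fell, while Ly6g was not tested. Of 10 epithelial markers 7 rose and 2 fell, with a median of 2.32. Epcam, at -2.66 (SE 0.11), was among the falls. Against this median, the summed level of the 10 markers was lower under bleomycin, at 260.2 to 494 CPM beside 743 to 884 CPM under saline. The part of these differences in the rise of the cholesterol genes was not tested.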
